A study of Drosophila melanogaster with 2 samples.

Results

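Segmentation and Hox genes, 36 in all of the 13968 protein-coding genes annotated on the chromosome arms of Drosophila melanogaster, were examined for binding by CG4404. The genes were taken from a written list of 10 gap and head gap genes, 9 pair-rule genes, 9 segment polarity genes and 8 Hox genes, and all 36 were found in the annotation. The locus of a gene was its body plus 5 kb on either side in the dm6 assembly. The data were chromatin immunoprecipitation sequencing (ChIP-seq) of whole embryos aged 0 to 4 hours from a transgenic strain expressing CG4404 fused to enhanced green fluorescent protein (eGFP), precipitated with an anti-GFP antibody per the labels, in 2 biological replicates of that 1 group. Nothing in the labels says whether an untagged copy of CG4404 was also present, and the driver of the fusion is not given in the sources used here. With no input or control library used here there was no contrast to test, and each count was set beside the same count over all protein-coding genes. The embryos were whole, so binding in a few cells and weak binding in all of them cannot be told apart.

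The body axis of the fly embryo is laid out by a cascade of transcription factors. Maternal gradients set broad domains of gap gene expression, gap proteins set the stripes of pair-rule genes, and pair-rule proteins set the narrower stripes of segment polarity genes, which hold segment borders through Wingless and Hedgehog signalling. Hox genes then give each segment its identity. Many of these genes are controlled by enhancers that lie several kilobases from the promoter, in introns or in flanking DNA.

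Peaks were deposited as ranked lists of all candidates and as thresholded lists of those with a low irreproducible discovery rate (IDR), a measure of how poorly a peak's rank recurs between a pair of calls, per replicate and for both replicates pooled. Most of the pooled thresholded peaks in these loci lay away from the promoter, as did most of the DNA of the loci. Wnt6, lin and lab, 3 of 36 members (8.33%, 95% Wilson interval 2.87 to 21.8), had the summit of a pooled thresholded peak within 500 bp of one of their own transcription start sites (TSSs), beside 14.2% of all protein-coding genes, a value inside that interval. A summit lay somewhere in the locus of 20 of 36 members (55.6%, interval 39.6 to 70.5), beside 40.3% of all protein-coding genes. For 18 members (50%, interval 34.5 to 65.5) at least 1 of those summits was distal, meaning more than 500 bp from any annotated TSS, beside 15.7% of all protein-coding genes. In the pooled list, thresholded peaks were thus absent at 33 of 36 promoters and absent over the whole locus at 16. For promoters and for whole loci the interval took in the share of all protein-coding genes. Of the 16, pb had a thresholded peak in each replicate's own list.

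The sequences under the strongest peak of slp2, slp1, Antp, Ubx and oc, the genes with a peak of signal over 200, were read from dm6. The 121 bp centred on each summit are given as examples of DNA under strong peaks of these loci. Capitals mark every match, on either strand, to the words counted at summits, of which 5 occurred in these windows: GATAA, the core of sites for GATA factors; TTTATG, a word of the homeodomain protein Caudal; GAGAG, the word of GAGA factor; CANNTG, the E-box of basic helix-loop-helix proteins; and GGTCACAC, the core of Motif 1, an element of many fly core promoters. The coordinates on the plus strand are chr2L:3832449-3832569 for slp2, chr2L:3827812-3827932 for slp1, chr3R:6914499-6914619 for Antp, chr3R:16718063-16718183 for Ubx and chrX:8627294-8627414 for oc.
slp2: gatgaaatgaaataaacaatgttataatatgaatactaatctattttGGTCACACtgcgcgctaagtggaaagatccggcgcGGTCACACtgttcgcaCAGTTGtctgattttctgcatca
slp1: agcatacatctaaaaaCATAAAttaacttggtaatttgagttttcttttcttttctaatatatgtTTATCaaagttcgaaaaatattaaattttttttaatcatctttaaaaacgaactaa
Antp: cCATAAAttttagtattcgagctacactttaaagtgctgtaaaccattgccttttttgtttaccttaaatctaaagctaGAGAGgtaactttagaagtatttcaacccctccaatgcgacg
Ubx: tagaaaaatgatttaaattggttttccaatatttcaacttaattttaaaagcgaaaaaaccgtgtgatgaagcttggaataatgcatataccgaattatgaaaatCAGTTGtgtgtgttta
oc: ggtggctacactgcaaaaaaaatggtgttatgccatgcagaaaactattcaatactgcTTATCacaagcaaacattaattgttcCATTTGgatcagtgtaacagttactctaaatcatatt

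The 5 windows had little in common. Their G+C content ran from 19% at slp1 to 39.7% at slp2, beside a median of 36.3% in 201-bp windows at all distal peaks. The slp2 window held GGTCACAC 2 times on the same strand, although its summit lay 4331 bp from the nearest TSS. That word was added after the sequences had been seen. It occurred within 100 bp of 1 of the 34 distal summits in these loci, of 7 of all 2243 distal summits of the pooled list (0.312%) and of 40 of all 3835 summits (1.04%). The E-box was the word found in the Ubx window, and it also occurred in the slp2 and oc windows; such short words are frequent, and it was present within 100 bp of 58.7% of all distal summits.

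**Figure D1:**
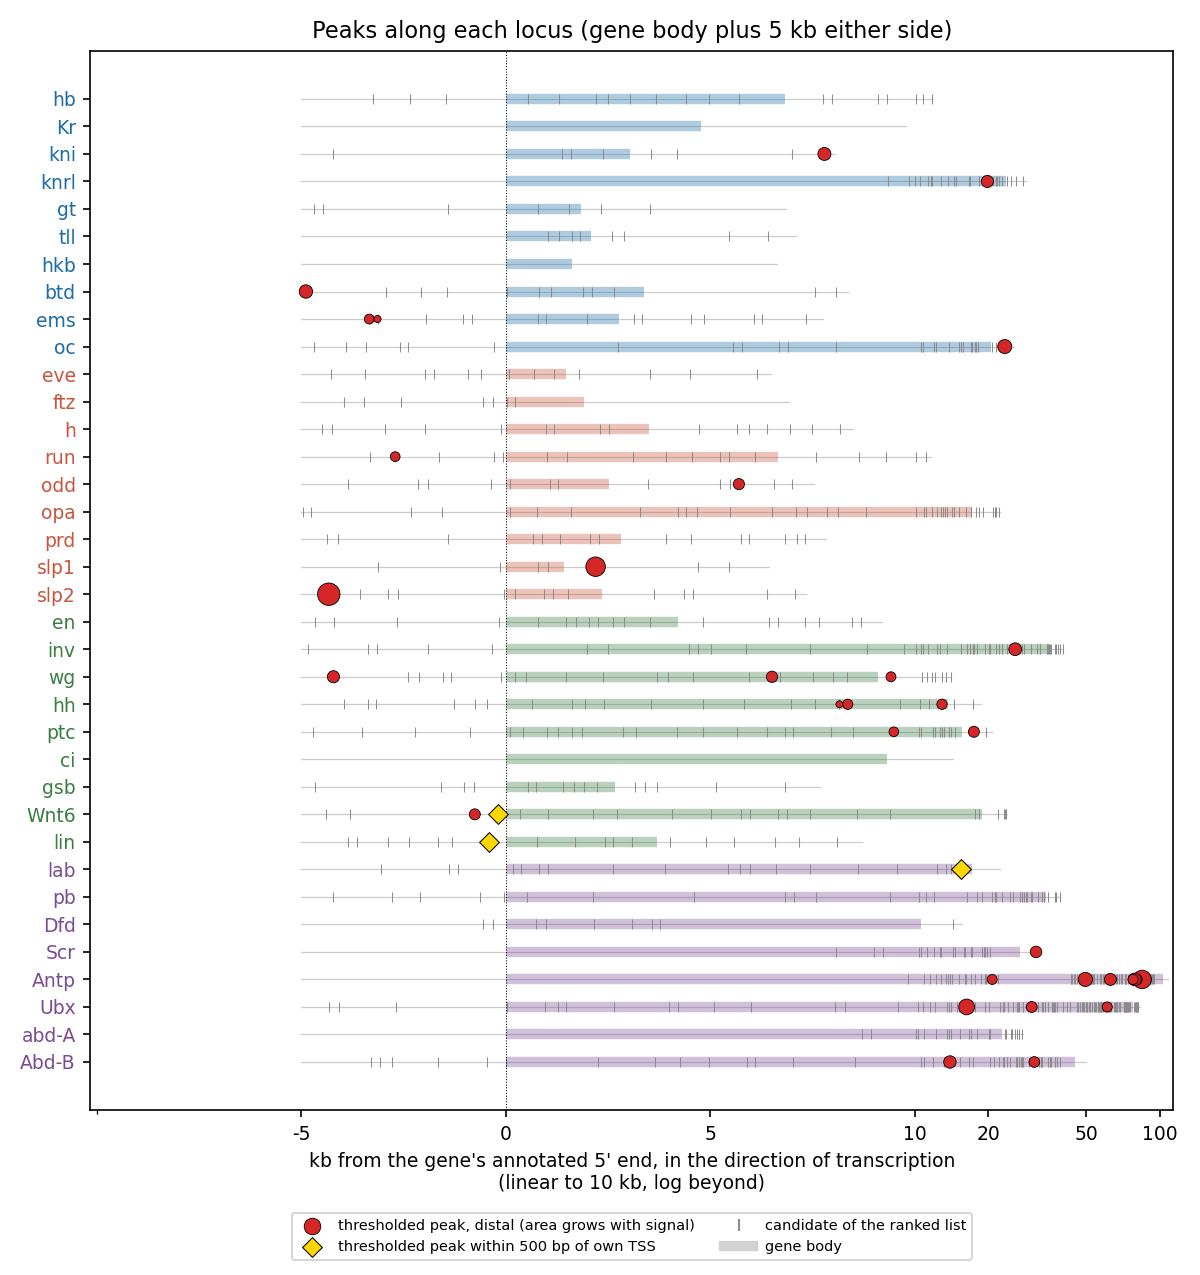
Peaks along the 36 loci. The x axis gives kb from the annotated 5′ end of each gene in the direction of transcription, linear to 10 kb and logarithmic beyond, and each row is 1 gene, with the gene body as a thick bar, candidates of the ranked list as ticks, distal thresholded peaks as red circles and the 3 peaks within 500 bp of an own TSS as yellow diamonds. Red circles sit in flanks and gene bodies, and Kr, hkb and ci have no tick at all.

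The pooled thresholded list held 37 peaks in the 36 loci, and no peak fell into the loci of 2 members. Of these, 34 (91.9%) were distal, beside 58.5% of all 3835 peaks of the list, and none lay at a TSS that belonged only to another gene. The distal part made up 822.7 of the 920 kb of these loci and held 748 of their 830 candidates in the ranked list. Introns held 20 of the distal peaks, intergenic DNA 13 and a coding exon 1. The same features held 57.4%, 33.2% and 5.75% of all 2243 distal peaks, so the split was close to that of the whole list. The 34 distal summits lay a median of 9133 bp from the nearest own TSS, from 758 bp at Wnt6 to 61034 bp at Ubx, and 23 of them lay over 5000 bp away.

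Peak signal is the peak caller's own value per peak, deposited by the authors with no stated scale. It is used here only to rank and describe peaks within a list, and the pooled value is larger than either replicate's. The median signal of the 37 peaks was 111, beside 118 for all peaks of the pooled list, and that of the 34 distal peaks was 113, beside 105 for all distal peaks. Of the 37, 6 had a signal over 200 (16.2%, beside 25.4% of all peaks). Distal peaks at these genes were thus of ordinary strength for the list.

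Among the gap and head gap genes, which act at the top of the zygotic cascade, 5 of 10 had a peak in the locus and 0 had one at the promoter. Over all protein-coding genes the shares were 40.3% and 14.2%, and gene groups this small give only rough shares. The strongest lay 15822 bp from the nearest TSS of oc (ocelliless, also called orthodenticle), a homeobox gene of the head, in the intergenic flank downstream of the gene at chrX:8627162-8627545. Its signal was 212 in the pooled call, 116 in replicate 1 and 95.3 in replicate 2. The btd peak, at chrX:9689104-9689487, lay 4890 bp upstream of buttonhead, a zinc-finger head gap gene, and its signal was 188 pooled, 99.9 in replicate 1 and 86.0 in replicate 2. The nearest TSS to it, 1107 bp away, was that of the non-coding RNA gene lncRNA:CR42657. The nearest other protein-coding gene was nej, whose TSS was 2230 bp away, so the peak could be assigned to any of these genes.

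The paralogues kni and knrl, which encode nuclear receptor-like repressors, each had 1 peak, which passed in both replicates' own lists. The kni peak, 6972 bp from a TSS in the downstream flank at chr3L:20687392-20687775, had a signal of 172 pooled, 81.6 in replicate 1 and 84.4 in replicate 2. The knrl peak, in an intron 19813 bp from the TSS at chr3L:20600654-20601037, had 143 pooled, 67.8 in replicate 1 and 79.6 in replicate 2. The homeobox gene ems had a pair of overlapping peaks 3340 and 3138 bp upstream. The stronger had a signal of 74.0 pooled, 40.8 in replicate 1 and 39.3 in replicate 2, and passed the threshold in replicate 1 but not in replicate 2. The weaker had a pooled signal of 10.3, and the replicate 1 list likewise held a weaker overlapping peak there, of signal 8.77.

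The other gap genes had no thresholded peak in any list. The highest candidate signal was 53.2 at hb (hunchback), 36 at gt (giant) and 42.0 at tll (tailless). At Kr (Krüppel) and hkb (huckebein) the ranked list held no candidate within the locus.

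Of the pair-rule genes, which first divide the embryo into repeated units, 4 of 9 had a peak in the locus and 0 had one at the promoter. These counts stand beside the same 40.3% and 14.2% of all protein-coding genes. The neighbouring forkhead-domain genes slp1 and slp2 (sloppy paired) held the strongest peaks of all 36 loci. The slp2 peak lay at chr2L:3832380-3832656, 4331 bp upstream of slp2 and between both genes, with a signal of 634 pooled, 329 in replicate 1 and 303 in replicate 2, and ranked 129 of 3835 in the pooled list. The slp1 peak, at chr2L:3827737-3828003 and 2197 bp from its TSS just past the end of the gene, had 465 pooled, 212 in replicate 1 and 248 in replicate 2, and ranked 241. Both passed in each replicate's own list. At the promoters themselves the highest candidate signals were 34 at slp1 and 12.9 at slp2.

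The odd-skipped gene odd, a zinc-finger repressor, had a peak 5703 bp from its TSS in the downstream flank, at chr2L:3600861-3601244, with a signal of 111 pooled, 50 in replicate 1 and 63.5 in replicate 2. The run (runt) peak, 2706 bp upstream at chrX:20687772-20688155, was weaker, with 71.2 pooled, 35.2 in replicate 1 and 42.0 in replicate 2. It passed in replicate 2 only, and the nearest TSS, 1145 bp away, was that of the non-coding RNA gene lncRNA:CR43862. The remaining 5 pair-rule genes, eve, ftz, h, opa and prd, had no thresholded peak. The gene h (hairy), a basic helix-loop-helix repressor annotated as hry, had its strongest candidate 127 bp from a TSS, with a signal of 62.3 and a −log10 IDR of 1.21, short of the threshold of 2. The highest candidate signal was 46.3 at eve (even skipped), 38.0 at ftz (fushi tarazu), 64.6 at opa (odd paired) and 61.6 at prd (paired).

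**Figure D2:**
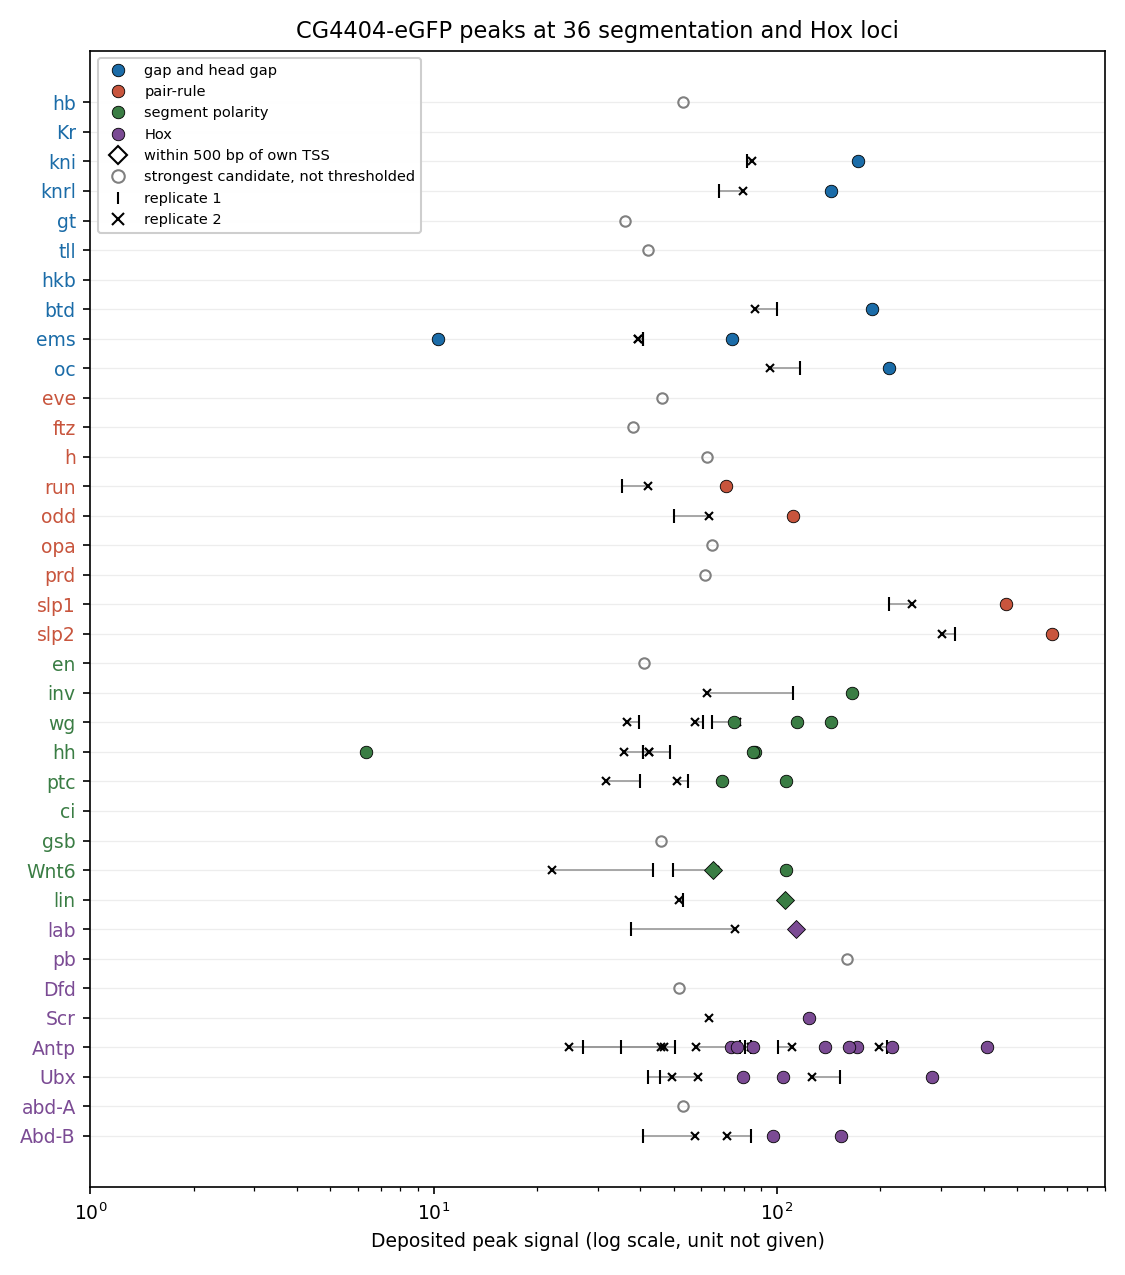
Deposited signal of each thresholded peak in the 36 loci, on a log axis. Filled symbols are pooled values coloured by gene group, with diamonds for the 3 peaks within 500 bp of an own TSS, bars and crosses are replicates 1 and 2 joined by a line, and open circles give the strongest pooled candidate of members with no peak in the pooled thresholded list. The slp2 and slp1 peaks, at 634 and 465, lie farthest right, and the open circles lie between 36 and 160.

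Of the segment polarity genes, 6 of 9 had a peak in the locus, beside 40.3% of all protein-coding genes. The ligand gene wg (wingless), the main embryonic Wnt, had 3 peaks. The strongest, 4217 bp upstream of the TSS at chr2L:7302750-7303133, had a signal of 144 pooled, 64.7 in replicate 1 and 76.3 in replicate 2. One in an intron, at chr2L:7313480-7313863, had 114 pooled, 61.0 in replicate 1 and 57.7 in replicate 2. The weakest, 9423 bp from the TSS past the 3′ end, had 75.1 pooled, 39.6 in replicate 1 and 36.6 in replicate 2, and passed in neither replicate's own list. The wg promoter held candidates only, the highest with a signal of 25.

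The related ligand gene Wnt6 had 2 peaks close together. That at chr2L:7333331-7333714 was 191 bp upstream of the TSS and is one of the 3 promoter peaks, with a signal of 65.3 pooled, 43.6 in replicate 1 and 22 in replicate 2. It passed in neither replicate's own list and had a −log10 IDR of 0.53 between the replicates, so it is a call of the pooled list alone. The other, 758 bp upstream at chr2L:7332764-7333147, was stronger, with 106 pooled, 49.9 in replicate 1 and 66.0 in replicate 2, and passed in both replicates.

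The ligand gene hh (hedgehog) had 3 peaks inside the gene, with pooled signals of 86.1, 84.8 and 6.37. The first, in a coding exon at chr3R:23128777-23129160, lay 988 bp from the TSS of CG31457, and its signal was 48.8 in replicate 1 and 35.8 in replicate 2. The second, in an intron at chr3R:23133349-23133732, had 40.7 in replicate 1 and 42.3 in replicate 2, and the third overlapped it. Replicate 2 alone gave no thresholded peak at hh. The gene ptc (patched), which encodes the Hedgehog receptor, had an intronic peak of signal 69.1 pooled, 39.8 in replicate 1 and 31.8 in replicate 2, which passed in neither replicate. A second, of 106 pooled, 54.9 in replicate 1 and 51.0 in replicate 2, lay at chr2R:8666912-8667295, beyond the end of ptc in an intron of Acsl and 933 bp from an Acsl TSS, and passed in replicate 2 only.

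The homeobox gene inv (invected), a paralogue of en, had an intronic peak at chr2R:11499992-11500375, 24476 bp from its TSS, with 165 pooled, 111 in replicate 1 and 62.6 in replicate 2. The conservative pooled list added a second inv peak of signal 75. At lin (lines), a regulator of Wingless signalling, the peak at chr2R:8913925-8914308 was 407 bp upstream of the lin TSS but 48 bp from that of Pgi, the gene of glucose-6-phosphate isomerase, so it cannot be assigned to lin alone. Its signal was 105 pooled, 53.0 in replicate 1 and 51.7 in replicate 2, and it passed in replicate 1 only. The genes en (engrailed), gsb (gooseberry) and ci (cubitus interruptus) had no thresholded peak. The highest candidate signal was 41.0 at en, 472 bp from a TSS, and 45.8 at gsb.

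Of the Hox genes, 5 of 8 had a peak in the locus, beside 40.3% of all protein-coding genes. Antp (Antennapedia), which specifies thoracic identity, held 8 of the 15 Hox peaks. All 8 lay in introns, the nearest 3493 bp from an Antp TSS. The strongest, at chr3R:6914437-6914654, had a signal of 410 pooled, 208 in replicate 1 and 198 in replicate 2. Another, at chr3R:6912354-6912737, had 171 pooled, 77.9 in replicate 1 and 84.4 in replicate 2, and one at chr3R:6920029-6920412 had 162 pooled, 80.5 in replicate 1 and 83.8 in replicate 2. One 3493 bp from a TSS had 138 pooled, 84.2 in replicate 1 and 58.2 in replicate 2. Of the 8, 5 passed in both replicates, and the other 3, with pooled signals from 73.4 to 85.2, passed in 1 replicate each. Part of the Antp body is shared with the intron of CG46458, an overlapping gene, which holds 7 of the 8 summits.

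Ubx (Ultrabithorax), which specifies the posterior thorax and first abdominal segment, had 3 intronic peaks. The strongest, at chr3R:16718038-16718206 and 16303 bp from the TSS, had a signal of 282 pooled, 152 in replicate 1 and 126 in replicate 2. It lay 2004 bp from a TSS of the antisense RNA gene asRNA:PS4. The others were weaker, at 104 and 79.8 pooled, and each passed in 1 replicate. Abd-B (Abdominal-B), which specifies posterior abdominal segments, had an intronic peak of 153 pooled, 83.9 in replicate 1 and 71.3 in replicate 2, 1984 bp from its nearest TSS. A second Abd-B peak of 97.0 pooled, 40.7 in replicate 1 and 57.5 in replicate 2, passed in replicate 2 only.

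The lab (labial) peak, at chr3R:6662920-6663303, counted as a promoter peak because it lay 342 bp from the TSS of a short transcript well inside the gene, and not near the annotated 5′ end. Its signal was 114 pooled, 37.5 in replicate 1 and 75.2 in replicate 2, and it passed in replicate 2 only. The Scr (Sex combs reduced) peak, at chr3R:6818507-6818890 in the downstream flank, had a signal of 124 pooled and 63.5 in replicate 2, with no overlapping candidate in replicate 1; it passed in neither replicate and lay 1195 bp from the TSS of tRNA:Lys-TTT-2-1. It was missing from the ranked list that compares the replicates.

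The gene pb (proboscipedia) was absent from both pooled lists although each replicate's own list had an intronic peak about 18 kb from its TSS. The replicate 1 peak, at chr3R:6723733-6724092, had a signal of 68.0, and the replicate 2 peak, at chr3R:6723844-6724193, had 85.2. The candidate of highest signal in the pb locus had 160 in the pooled ranked list. Dfd (Deformed) and abd-A (abdominal-A) had no thresholded peak in any list, and their highest candidate signals were 51.8 and 53.2.

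Counting each replicate's own list gave the same pattern with fewer peaks. Replicate 1 had a summit in the locus of 17 members (47.2%, beside 35.2% of all protein-coding genes), a distal summit at 16 (44.4%, beside 11.3%) and a promoter summit at 1 (2.78%, beside 12.9%), which was lin. Replicate 2 also had 17 members with a summit in the locus (beside 30% of all protein-coding genes), 16 with a distal summit (beside 10.3%) and 1 with a promoter summit (beside 10.2%), which was lab. The locus was bound in both replicate lists for 14 members. Of the 37 pooled peaks, 18 overlapped thresholded peaks of both replicates (48.6%, beside 53.2% of all peaks), 8 of replicate 1 only, 7 of replicate 2 only and 4 of neither.

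**Figure D3:**
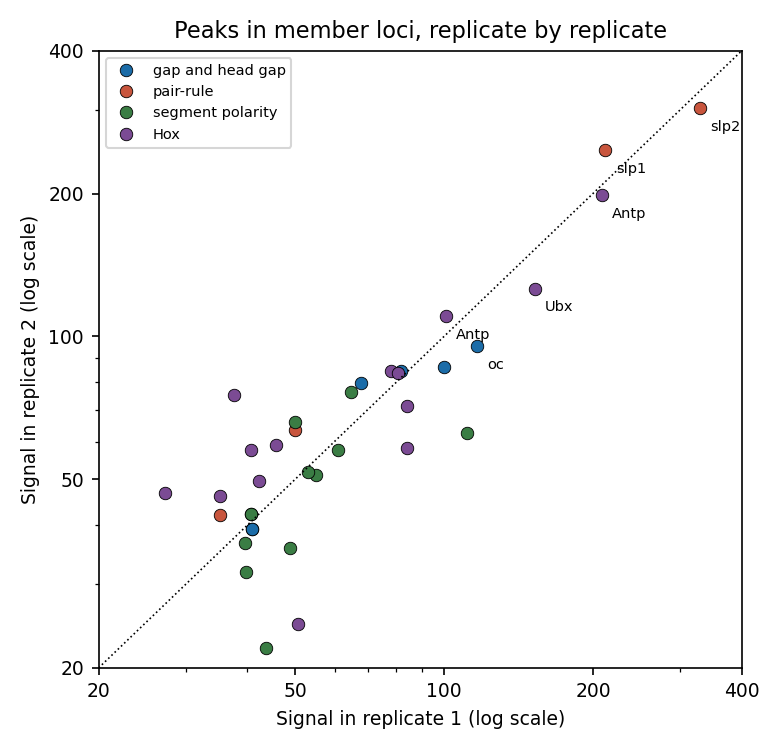
Signal of the peaks in the 36 loci in replicate 1 (x axis) against replicate 2 (y axis), both on log axes, coloured by gene group, with the line of equal values dotted and peaks of pooled signal over 200 named. The Scr peak, which has no value in replicate 1, is not drawn, and the 6 named peaks lie near the dotted line.

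Of all members, 17 (47.2%, interval 32.0 to 63.0) had a peak in the locus but none at an own TSS, beside 26.1% of all protein-coding genes. A pair or more of summits lay in 8 loci (22.2%, beside 14.8% of all protein-coding genes). Long loci have more room for peaks, and the median locus was 16.7 kb for members and 12.2 kb for all protein-coding genes, so the genes were divided by locus length. A distal summit lay in 6 of 17 member loci of up to 15 kb (35.3%, interval 17.3 to 58.7, beside 10.7%), in 5 of 10 of 15 to 30 kb (50%, interval 23.7 to 76.3, beside 23.3%) and in 7 of 9 over 30 kb (77.8%, interval 45.3 to 93.7, beside 48.4%). The interval took in the value of all protein-coding genes in the longest class only.

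**Figure D4:**
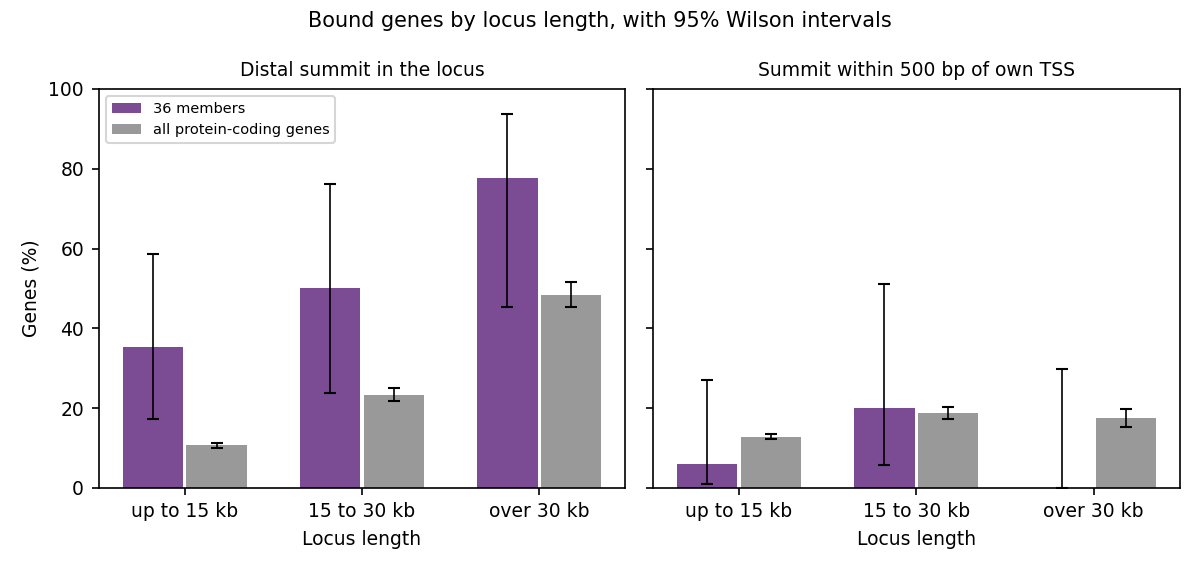
Percent of genes with a distal summit in the locus (left) and with a summit within 500 bp of an own TSS (right), by locus length, for the 36 members and for all protein-coding genes, with 95% Wilson intervals as error bars. The member bars on the left stand at 35.3%, 50% and 77.8%, and those on the right at 5.88%, 20% and 0%. On the right all protein-coding genes stand at 12.8%, 18.7% and 17.4%, each inside the interval of the members.

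Per length of DNA, the distal part of the member loci held 41.3 peaks per Mb (34 peaks in 822.7 kb, exact 95% Poisson interval 28.6 to 57.7), and the distal part of all protein-coding loci held 19.5 (interval 18.6 to 20.4). The values were 30.4 beside 13.5 in replicate 1 and 31.6 beside 12.1 in replicate 2. Without the Antp locus the pooled value was 36.3 (interval 23.7 to 53.2). In windows of 500 bp either side of the members' own TSSs there were 56.6 peaks per Mb (3 peaks, interval 11.7 to 165), and in those of all protein-coding genes 97.0 (interval 92.1 to 102), a difference not detectable with 3 peaks. The 4 gene groups ranged from 34.9 per Mb at pair-rule genes to 55.9 at segment polarity genes in the distal part, with overlapping intervals. These intervals cover counting error only, and peaks of 1 locus are not independent.

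**Figure D5:**
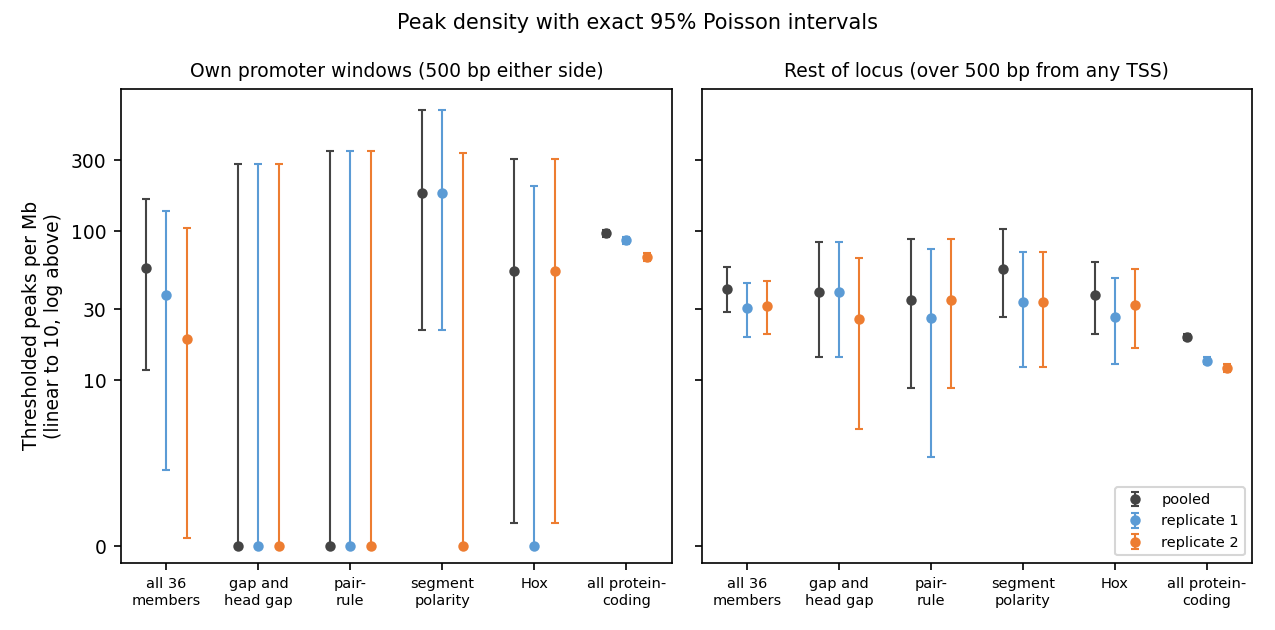
Thresholded peaks per Mb in the own promoter windows (left) and in the rest of the locus (right) for all 36 members, the 4 gene groups and all protein-coding genes, in the pooled list and in each replicate, with exact 95% Poisson intervals; the y axis is linear to 10 and logarithmic above. On the right the 36 members stand at 41.3 and all protein-coding genes at 19.5 in the pooled list.

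The ranked lists hold every candidate peak, most of which did not pass the IDR threshold. Candidates were about as dense in the distal part of the member loci as elsewhere, at 909 per Mb beside 974 for all protein-coding loci, and in their promoter windows, at 924 beside 1012. They were sparser at gap and head gap genes, at 742 in the distal part (interval 612 to 891) and 307 at promoters (4 candidates, interval 83.7 to 786). The other groups ranged from 849 to 1079 in the distal part and from 928 to 1502 at promoters. A candidate lay within 500 bp of an own TSS of 25 members (69.4%, beside 71.7% of all protein-coding genes). Apart from the 3 promoter-bound genes, the promoter candidate nearest to passing was that of oc, with a signal of 66 and a −log10 IDR of 1.58, followed by that of h. The en promoter candidate had a signal of 41 and a −log10 IDR of 0.92, that of odd a signal of 38.3 and a −log10 IDR of 0.511, and the strongest of 9 at Abd-B a signal of 40.2 and a −log10 IDR of 0.276. Candidates at the promoters of eve, run, opa, prd and ftz had signals of 31.1, 33.4, 23.7, 13 and 29.1 at most, and −log10 IDR values of 0.346 or less. Of 830 candidates in the member loci 33 passed the IDR threshold (3.98%, interval 2.84 to 5.53), beside 2.97% of all candidates. Among those within 500 bp of a member's own TSS 2 of 49 passed (4.08%, interval 1.13 to 13.7), beside 8.64% at all promoters, and among distal ones 4.14% passed (interval 2.93 to 5.82), beside 2.02% of all distal candidates.

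No candidate at all lay in the loci of Kr, hkb and ci (8.33%, beside 5.8% of all protein-coding genes). Kr lay in a stretch of 117 kb without a candidate, which was 138 kb in replicate 1 and 127 kb in replicate 2. The stretch around hkb was 30 kb, 29.3 kb in replicate 1 and 30.1 kb in replicate 2. On arm 4, which carries ci, the ranked list had 15 candidates in all, and the first lay at position 527838. The annotated 5′ ends of 8 members (22.2%, interval 11.7 to 38.1) fell in candidate-free stretches of at least 10 kb, beside 16.2% of all protein-coding genes. Besides those 3 genes they were knrl, tll, Scr, Antp and abd-A, with stretches from 11.0 kb at tll to 20.3 kb at Antp. In the replicates' own ranked lists the stretch at knrl was 3.67 kb in replicate 1 and 11.5 kb in replicate 2, and that at tll 11.2 kb and 3.63 kb, so both were under 10 kb in 1 replicate. The stretches at Scr, Antp and abd-A were 10.5 kb or longer in each replicate. Among the 28 members outside such stretches the 3 promoter-bound genes made 10.7% (interval 3.71 to 27.2), beside 16.1% of all protein-coding genes outside them. Whether reads can be mapped in these stretches was not tested.

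Genes that act with the members were counted from 3 further lists. Over all protein-coding genes the shares with a promoter peak, a peak in the locus and a distal peak were 14.2%, 40.3% and 15.7%. Of 14 maternal and early zygotic regulators, 2 had a peak at an own TSS (14.3%), 6 in the locus (42.9%) and 5 a distal peak (35.7%). The 2 with a promoter peak were bcd (bicoid), the maternal anterior determinant, with a promoter signal of 177 pooled, 99.6 in replicate 1 and 80.3 in replicate 2, and cnc (cap-n-collar), with 115 pooled, 67.8 in replicate 1 and 44.7 in replicate 2. The cnc peak passed in replicate 1 only. Of 19 paralogues and cofactors, 2 had a promoter peak (10.5%), 11 a peak in the locus (57.9%) and 9 a distal peak (47.4%). The strongest was at bowl, a paralogue of odd, 209 bp from the TSS, with 658 pooled, 335 in replicate 1 and 322 in replicate 2, above any peak at the 36 members. The other was at fkh (fork head), with 95.3 pooled, 54.1 in replicate 1 and 40.2 in replicate 2, and it passed in replicate 1 only. Of 27 Hedgehog and Wnt pathway components, 3 had a promoter peak (11.1%), 15 a peak in the locus (55.6%) and 10 a distal peak (37%). The 3 were sgg (shaggy), the kinase that acts against Wnt signalling, with 380 pooled, Apc2 with 132 and disp (dispatched), which releases Hedgehog, with 104. The disp peak passed in replicate 1 only.

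Short words were counted within 100 bp of the 34 distal summits, on both strands, beside all 2243 distal summits of the pooled list. TAATTA, the core word of many homeodomain proteins, occurred at 10 (29.4%, beside 16.2% of all distal summits), and TTTATG at 11 (32.4%, beside 22.3%). GATAA occurred at 15 (44.1%, beside 35.1%), the TATA word TATAAA at 14 (41.2%, beside 31.6%) and GAGAG at 6 (17.6%, beside 23.1%). The DNA replication-related element TATCGATA occurred at 0 of 34, beside 0.178%, and CGATA, which lies inside it, at 9 (26.5%, beside 19.3%). CAGGTA, a word of the pioneer factor Zelda, occurred at 1 (2.94%, beside 4.68%), the E-box CANNTG at 22 (64.7%, beside 58.7%) and CACCTG, which is one form of it, at 0 (beside 6.73%). The median G+C content of the 201-bp windows was 35.3% for the 34 distal peaks and 36.3% for all distal peaks. With promoter peaks included it was 35.8% for the 37 peaks and 35.3% for all peaks.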

How the data were processed

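Per the file headers, the authors mapped the reads to dm6 and deposited ranked and IDR-thresholded peak lists per replicate, and conservative and non-conservative lists for the replicates pooled; no header or label names an aligner or peak caller. The signal of each peak and the −log10 of the IDR in the ranked lists are deposited values. In the second of the pooled ranked lists, every pooled thresholded peak had a −log10 IDR of at least 2, an IDR of 0.01. The −log10 IDR values given for single peaks and candidates are instead between the replicates. Those fell below 2 for the Wnt6 promoter peak (0.525), the weaker ems peak (0.114) and the weakest hh peak (0.113). They did so too for the Antp peaks of pooled signal 73.4 (1.77) and 76.4 (1.01). The Scr peak had no such value. The pooled list held 3835 peaks on the 7 arms, the conservative list 3687, replicate 1 2957 and replicate 2 2479; precision is set by these numbers of peaks, since no read depth was used. The members and lists were chosen with earlier results of these data known.

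Summits were assigned to genes of the BDGP6 annotation (Ensembl release 115, the dm6 assembly), of which 13968 on the arms are protein-coding. A promoter was 500 bp either side of any TSS of the gene. Peaks at these genes were paired with a replicate's peaks where they overlapped by at least 1 bp. Where a replicate's own thresholded list held no overlapping peak, its value came from its ranked list. All members with a peak were named, up to 5 peaks each, as were up to 4 promoter-bound genes of each further list, and words were counted in 201 bp. Where an interval is given, it is a 95% Wilson interval for a share and an exact 95% Poisson interval for a density, both for counting error only. Many shares, among them those of the words and of the further lists, are given without one. For 1 of the 37 peaks the values, position and sequence are not reported here, and it enters the counts and plots only. No test was made, since there was 1 group. Counting functions were tested on simulated peaks. Python 3.11.15, pandas 2.3.3, numpy 2.4.6 and scipy 1.17.1 were used. One sample label names CG4404 as the antibody, and the description names anti-GFP. Alternatives covered the lists, the IDR threshold, promoter width, flank and overlap rule.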

Additional observations from a re-analysis of the deposited data

How the results depend on the processing

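No paired analysis was possible because there was 1 group and no test. Replicate lists alone gave 1 to 1 promoter-bound members, 17 to 17 locus-bound members, 27 to 27 peaks, 29.3 to 29.3 peaks per Mb, 3.70% to 7.41% of peaks near a member TSS and 3.58% to 3.61% of candidates passing. At an IDR of 0.001 there were 1 promoter-bound member (beside 10.6% of protein-coding genes), 21 peaks, 22.8 per Mb, 4.76% near a TSS and 2.29% passing; the share passing was 5.30% at an IDR of 0.05 and 4.41% in the second ranked list. With windows of 250 bp there was 1 promoter-bound member (beside 11.1%) and 2.70% of peaks near a TSS, and 10.8% at 1000 bp. Without a flank 9 members were locus-bound, beside 10.2% of protein-coding genes, with 21 peaks, 4.76% near a TSS and 3.50% of candidates passing. With 2 kb there were 12 such members (beside 28.2%), 11.1% and 3.74%, and with 10 kb 4.44% passed. Without Antp, an alternative chosen after seeing the data, 3.60% passed. The cause was not tested beyond what shorter flanks and fewer peaks give by construction.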
